A study of Mus musculus with 11 samples.

Results

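The smooth muscle contractile genes are 37 genes chosen by symbol that encode the filaments, kinases, channels, anchors and transcription factors of the muscle of the gut wall. All 37 were found among the 31168 genes of the count table, and all 37 had a mean of at least 1 count per 1000000 counts over the 11 libraries, the minimum for being described. The lowest means on this plain scale were 8.69, 9.19 and 9.28, for Kcnmb1, Ppp1r14a and Prkg1, and no member lay under the minimum. All 37 also passed the filter on low counts and were among the 15911 genes tested. Each library was made from total RNA of 2 cm of distal ileum, the end of the small intestine, and every mouse had been treated with dextran sodium sulfate, a polysaccharide that injures the intestinal lining. Mice of both groups were H2-Ab1 fl/fl, so that in each the gene of the MHC class II beta chain carried recombinase sites. The 6 WT mice were Villin:Cre-, and the 5 dIEC mice were Villin:Cre+, with a Cre recombinase made from the villin promoter in intestinal epithelial cells. The genotype labels of the samples were followed, although the design text gives both groups as lacking Cre. Whether the recombinase acted in any muscle cell was not measured, mouse age is not given in the sources used here, and no untreated mouse was analysed here.

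Smooth muscle shortens when calcium entering through voltage-gated channels activates myosin light chain kinase, which phosphorylates the regulatory light chain of myosin and lets myosin pull on actin. A phosphatase reverses this step, and cyclic GMP signalling favours relaxation. Force is passed on through dense bodies inside the cell and dense plaques at its membrane, which join actin to desmin filaments, integrins and the dystrophin complex. In the ileum this machinery fills the circular and longitudinal layers of the outer wall and the thin muscle under the mucosa, and the same genes are also used by the muscle cells around blood vessels. Several members have wider use: filamin, vinculin, alpha-actinin and the alpha 5 integrin are made by fibroblasts, endothelium and other cells. Most of the contractile genes are known targets of serum response factor, Srf, which binds a short DNA element, the CArG box, together with its coactivator myocardin.

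The CArG box is shown here because it is the element through which Srf, itself a member, acts on genes of this kind. RefSeq promoter windows of 300 bases (GRCm38.p6, 250 bases before to 50 after the annotated start) were found for 31 members and were not matched for Myh11, Actg2, Svil, Myocd, Tagln and Nexn. The box, 10 bases long, was searched on both strands, where it reads alike. It occurred in the windows of 4 of the 31 members (12.9%), against 488 of 27025 genes with a window (1.81%). A match is a description of these letters and does not show binding. The matches with their surroundings, on the strand of the gene and with the box in capitals, were as follows.
Myl9, chr2:156775273-156775342, plus strand: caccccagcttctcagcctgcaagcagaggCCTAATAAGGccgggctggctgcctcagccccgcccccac
Vcl, chr14:20929148-20929210, plus strand: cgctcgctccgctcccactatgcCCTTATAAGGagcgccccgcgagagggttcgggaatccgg
Srf, chr17:46556205-46556274, minus strand: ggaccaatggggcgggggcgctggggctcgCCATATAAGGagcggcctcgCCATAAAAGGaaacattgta
Dmd, chrX:82948742-82948811, plus strand: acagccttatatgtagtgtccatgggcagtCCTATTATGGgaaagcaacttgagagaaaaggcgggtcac
The Srf window held the box at 2 places, whose first bases lay 82 and 62 bases before the start. The first base of the box lay 161 bases before the start in Myl9, 227 in Vcl and 98 in Dmd. The 4 genes encode a myosin light chain, an actin anchor of the membrane, the transcription factor itself and dystrophin.

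Total counts ran from 6603965 to 9681698 per library, of which 22.9 to 37.3% fell in protein-coding genes when Lars2, whose own share is large, is left out. The ribosomal RNA share, Gm42418 included, was 34.6 ± 6.91% in WT and 40.5 ± 8.50% in dIEC (mean ± SD, 6 and 5 libraries). H2-Ab1, the targeted gene, had a mean of 83.1 ± 27.4 CPM in the WT libraries against 26.0 ± 9.87 CPM in the dIEC libraries (two-sided exact permutation p = 0.00433, the smallest that 462 assignments of the libraries allow). CPM, used from here on, is counts per 1000000 of the counts of tested genes, with the total scaled by TMM factors, which set most genes level between libraries. All p-values are measured against the spread between the libraries at hand, each taken as 1 mouse.

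The summed RNA of the 37 members made up a variable part of each library, and this part was on average smaller in dIEC. The muscle share is the summed count of the 37 members as a percent of the protein-coding counts other than Lars2. It was 2.91% in WT 2, 3.30% in WT 4, 2.04% in WT 7, 1.34% in WT 8, 1.87% in WT 9 and 1.86% in WT 12, where the number is that of the library. It was 0.813% in dIEC 1, 1.66% in dIEC 3, 2.03% in dIEC 5, 2.14% in dIEC 6 and 1.26% in dIEC 11. WT 4 and WT 2 thus stood above all other libraries and dIEC 1 below all, while the remaining 8 libraries of both groups overlapped. The WT mean was 2.22 ± 0.734% (SD, n = 6) and the dIEC mean 1.58 ± 0.550% (SD, n = 5), 0.713 of the WT mean, and the medians were 1.95% and 1.66%. The highest library held 4.05 times the share of the lowest. Without dIEC 1 the dIEC mean was 1.77 ± 0.396%, and without WT 4 the WT mean was 2.00 ± 0.569%. In log2, the ratio of the group means was -0.49 with all libraries, -0.32 without dIEC 1 and -0.34 without WT 4. The share was not tested, because it is a score over genes that were chosen as a list. In whole tissue, fewer muscle cells, less of this RNA per muscle cell and more RNA from other cells cannot be told apart.

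**Figure D1:**
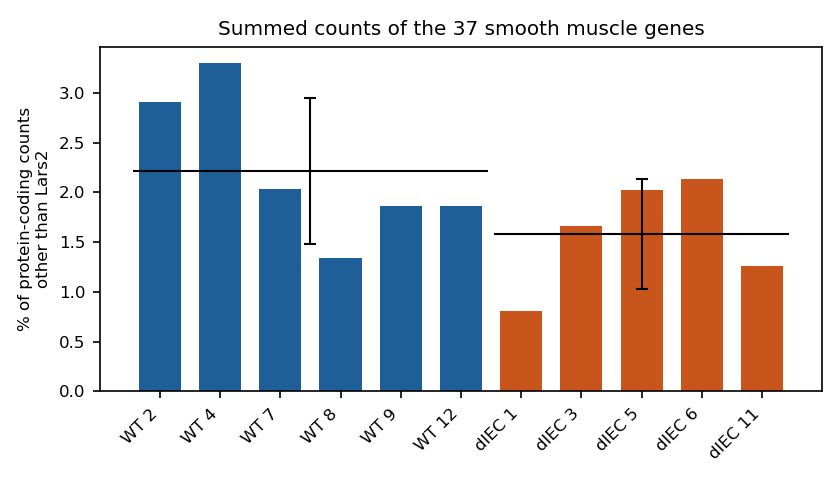
Summed counts of the 37 smooth muscle genes as a percent of the protein-coding counts other than Lars2 (vertical axis) in each of the 6 WT and 5 dIEC libraries (bars). The horizontal line is the group mean and the vertical bar 1 SD; WT 4 is highest at 3.30% and dIEC 1 lowest at 0.813%.

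For every member the part of the share that it made up varied by a smaller factor between libraries than the share itself. The highest library exceeded the lowest by a median factor of 1.46 over the members, from 1.09 for Flna to 2.56 for Srf, and by over 2-fold for 4 of them, Nexn, Cnn1, Actg2 and Srf. Actg2 gave 2.32% of the member counts in dIEC 1 and 5.92% in dIEC 6, and Cnn1 0.960% and 2.22% in the same libraries. Myh11, the smooth muscle myosin heavy chain, gave 18.1 to 19.9% of the member counts in WT libraries and 18.6 to 20.8% in dIEC libraries. Flna, the actin crosslinker filamin A, gave 14.6 to 16.0% and 14.7 to 15.9%, and Mylk, the kinase, 7.40 to 8.75% and 6.91 to 8.18%. In dIEC 1, with the smallest share, the proportions were 20.8% Myh11, 15.3% Flna and 7.91% Mylk.

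Across the members, 36 of 37 had a log2 fold change below 0 for dIEC against WT, where 51.2% of all tested genes did. None of the 37 passed an adjusted p under 0.05 by edgeR's quasi-likelihood test, which called 0.00628% of all genes, and adjusted p-values of the members ran from 0.427 to 0.961. DESeq2 called 0.0692% of all genes and 0 of the 37, with a lowest adjusted p of 0.366. At an unadjusted p under 0.05, 8 members were lower by edgeR and 0 higher, against 5.79% of all genes on the lower and 4.87% on the higher side, and 8 had such a p by DESeq2. The count of 8 by edgeR was 1 without WT 4 or dIEC 1, 3 without WT 2 or dIEC 11, 13 without dIEC 6, 18 without dIEC 5 and 19 without WT 8, each left out alone, and 28 when scaled by library size alone, where the median of the members was -0.66 and that of all genes -0.22. The median log2 fold change of the members was -0.41, beside -0.01 over all genes tested, and single members ran from -0.65 for Synpo2 to 0.02 for Srf. The 95% interval held 0 for 29 of the 37. For 0 of the 37 were the groups free of overlap, against 0.566% of all genes. Since the members varied together over the libraries, the 37 values are not 37 independent observations, and the number below 0 is not independent of the difference in muscle share.

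**Figure D2:**
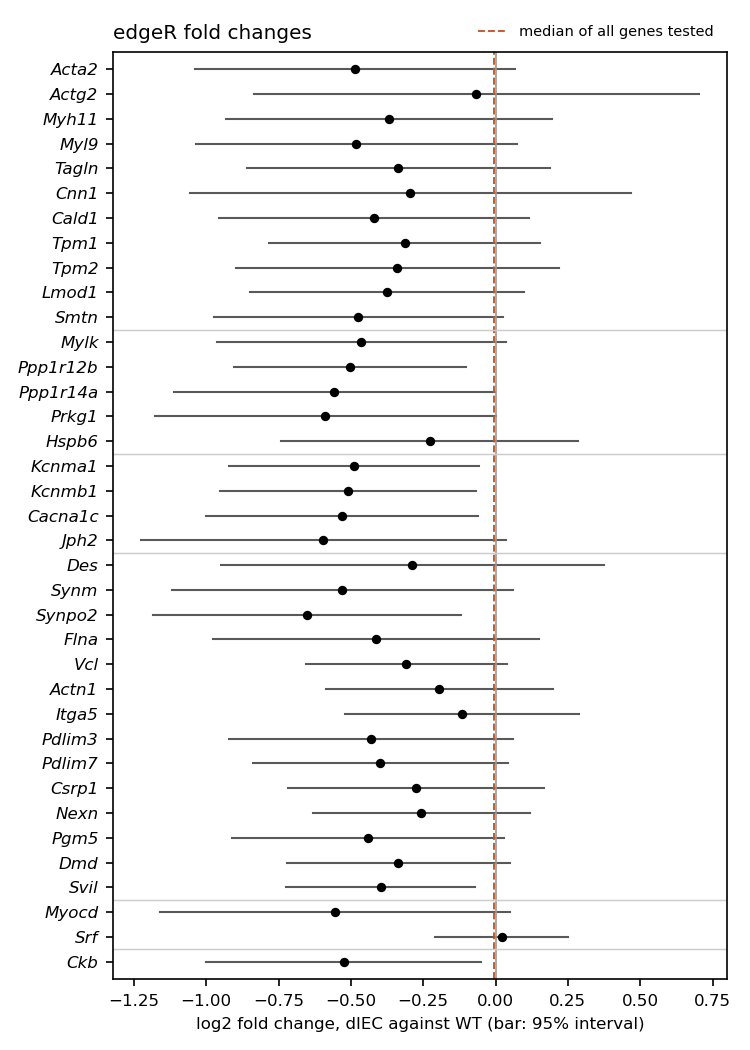
Log2 fold change of each member, dIEC against WT, by edgeR (horizontal axis; points) with its 95% interval (bars), in blocks by role; the dashed line is the median of all genes tested. All points but that of Srf lie below 0, and the intervals of 29 members hold 0.

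A few libraries set the extremes of nearly every member. WT 4 was the highest of the 11 libraries for 30 members, WT 2 for 6 and dIEC 6 for 1, Actg2. WT 2 and WT 4 were the highest pair for 32 of the 37. At the other end, dIEC 1 was lowest for 36 members and dIEC 11 for the other one, Cacna1c. Among WT libraries WT 8 was lowest for 31 members. The highest library exceeded the lowest by a factor of 1.40 for Srf to 5.82 for Cnn1, with a median factor of 3.30. For 7 members, Actg2, Tagln, Tpm2, Hspb6, Des, Itga5 and Srf, the median of the dIEC libraries was above the median of the WT libraries.

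**Figure D3:**
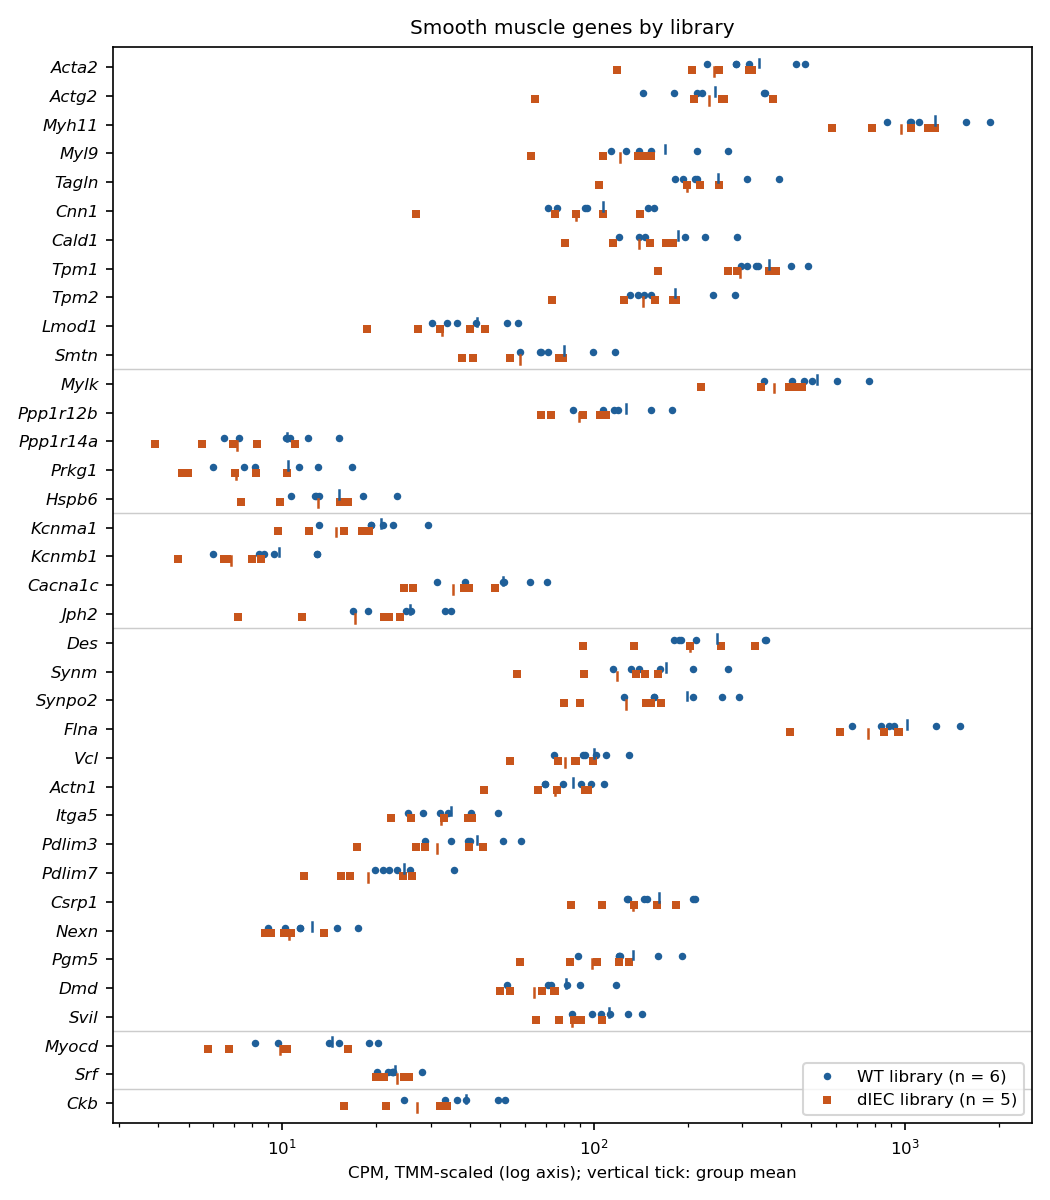
CPM of each member on a log axis in each WT (circles, n = 6) and dIEC library (squares, n = 5), in blocks by role; vertical ticks are group means. The ranges of the groups overlap for every member, and the lowest square of each row is set apart for genes such as Cnn1 and Actg2.

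The thin and thick filaments are the 11 members that make up the sliding machinery. All 11 were below 0, where 51.2% of all tested genes were, with a median log2 fold change of -0.37. By edgeR 0 passed adjusted and 0 had an unadjusted p under 0.05, against 5.79% of all genes on the lower side. DESeq2 also called 0. Values below are CPM, as the lowest, median and highest of the 6 WT libraries and as each of dIEC 1, 3, 5, 6 and 11. Myh11 (chromosome 16, 14194535 to 14291372, minus strand, GRCm38) had 876, 1075 and 1875 CPM in WT and 583, 1047, 1249, 1180.4 and 780.2 CPM in dIEC. Its log2 fold change was -0.37 ± 0.26 (SE), and apart from the WT 2 and WT 4 values above and dIEC 1 and dIEC 11 below, the groups interleaved. Acta2, the alpha actin of smooth muscle (chromosome 19, 34241090 to 34255590, minus strand), had 231, 301 and 478 CPM in WT and 119, 253, 322, 316 and 206 CPM in dIEC, a log2 fold change of -0.49 ± 0.26. Its dIEC 1 and dIEC 11 values lay below every WT value, and WT 2 and WT 4 lay above every dIEC value.

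Actg2, the gamma actin that dominates in gut muscle (chromosome 6, 83512905 to 83536265, minus strand), followed another order than Acta2. It had 144, 218 and 355 CPM in WT and 64.9, 262, 257, 376 and 209 CPM in dIEC, and 4 of the 5 dIEC libraries lay inside or above the WT range. Its log2 fold change, -0.07 ± 0.36, was the closest to 0 of the 36 below it, and it was 0.17 without dIEC 1, 0.07 without WT 2 and 0.06 without WT 4. The 2 actins are close paralogs, and how reads shared by both were counted is not given in the sources used here, so their split is uncertain. Cnn1, calponin, which binds actin and slows the myosin ATPase, had 71.4, 94.7 and 156 CPM in WT and 26.9, 87.6, 107, 141 and 75.0 CPM in dIEC, with the widest range of all members and a log2 fold change of -0.30 ± 0.35. Here dIEC 1 lay far under the rest and dIEC 6 inside the upper part of the WT range.

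Myl9, the regulatory light chain that the kinase phosphorylates, had 114, 146 and 270.1 CPM in WT and 63.0, 139, 153, 145 and 107 CPM in dIEC, a log2 fold change of -0.48 ± 0.26. Tagln, transgelin, an actin-binding protein of smooth muscle, had 183, 213 and 394 CPM in WT and 104, 219, 219, 252 and 199.9 CPM in dIEC, a log2 fold change of -0.34 ± 0.25. In both genes WT 2 and WT 4 stood clear above all dIEC values, and the other 4 WT libraries lay at or among them. An opposite-strand gene, Gm48529, overlaps Tagln, and its count was 0.932 to 0.972 of the Tagln count in every library. The library kit keeps the strand but the strand setting of the counting is not given, so reads of the pair cannot be told apart. The same holds in smaller measure for Smtn, smoothelin, whose opposite-strand partner Gm11946 had 0.366 to 0.530 of its count. Smtn had 58.1, 69.6 and 117 CPM in WT and 37.9, 54.0, 77.2, 79.4 and 40.9 CPM in dIEC, and dIEC 1, 3 and 11 lay below the lowest WT library. Tropomyosins cover the myosin sites of actin, and Tpm1 had a log2 fold change of -0.31 ± 0.22 and Tpm2 of -0.34 ± 0.26. Cald1, caldesmon, which restrains actin and myosin, had -0.42 ± 0.25 and Lmod1, leiomodin, which starts new actin filaments, -0.38 ± 0.22 on the same log2 scale.

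The control of light chain phosphorylation is represented by 5 members, all below 0, where 51.2% of all tested genes were. Their median log2 fold change was -0.50. By edgeR 2 of them, Ppp1r12b and Ppp1r14a, had an unadjusted p under 0.05, against 5.79% of all genes on the lower side. In this role 0 passed adjusted and DESeq2 called 0. Mylk, myosin light chain kinase (chromosome 16, 34745210 to 35002420, plus strand), had 352, 489 and 767 CPM in WT and 221, 424, 465, 439 and 343 CPM in dIEC. Its log2 fold change was -0.46 ± 0.23 and dIEC 1 and dIEC 11 lay below all WT libraries. Ppp1r12b, a targeting subunit of the opposing myosin phosphatase, had 85.7, 118 and 178 CPM in WT and 67.5, 92.5, 109.8, 105 and 73.0 CPM in dIEC, a log2 fold change of -0.50 ± 0.19 (edgeR adjusted p = 0.427). Ppp1r14a, the inhibitor CPI-17 of that phosphatase, had 6.50, 10.5 and 15.3 CPM in WT and 3.90, 8.31, 10.996, 6.96 and 5.52 CPM in dIEC, a log2 fold change of -0.56 ± 0.26 (edgeR adjusted p = 0.467). Kinase, phosphatase subunit and phosphatase inhibitor thus all had lower means in dIEC, each with groups that overlapped. Prkg1, the cyclic GMP-dependent kinase of relaxation, had a log2 fold change of -0.59 ± 0.27, and Hspb6, a small heat shock protein that is phosphorylated as muscle relaxes, -0.23 ± 0.24. Counts behind the lowest members were small: the smallest count of any member in a library was 27, for Ppp1r14a.

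The 4 members of excitation and calcium coupling had the lowest median of the multi-gene roles, -0.52. All 4 were below 0, where 51.2% of all tested genes were. By edgeR 3, the channels, had an unadjusted p under 0.05, against 5.79% of all genes on the lower side. In this role 0 passed adjusted by edgeR and DESeq2 also called 0. The members varied together, and their count at the unadjusted threshold depended on single libraries, as given above. Cacna1c, the pore of the L-type calcium channel (chromosome 6, 118587240 to 119196418, minus strand), had 31.3, 51.4 and 70.6 CPM in WT and 26.3, 38.2, 48.1, 39.9 and 24.6 CPM in dIEC, a log2 fold change of -0.53 ± 0.22 (edgeR adjusted p = 0.441). Kcnma1, the pore of the large-conductance potassium channel that limits contraction, had 13.1, 20.2 and 29.4 CPM in WT and 9.68, 15.8, 18.9, 18.0 and 12.2 CPM in dIEC, a log2 fold change of -0.49 ± 0.20. Kcnmb1, the smooth muscle subunit of that channel, had 5.97, 9.06 and 13.0 CPM in WT and 4.62, 7.97, 8.55, 6.49 and 6.63 CPM in dIEC, a log2 fold change of -0.51 ± 0.21. The channel subunits overlapped between groups, with WT 2 and WT 4 above every dIEC value in each. In all, 5 of the 6 WT libraries lay above every dIEC value for Kcnma1, and 4 of the 6 for Kcnmb1 and for Cacna1c. Jph2, junctophilin 2, which ties the plasma membrane to calcium stores, had 16.9, 25.5 and 34.8 CPM in WT and 7.22, 22.0, 23.8, 21.2 and 11.6 CPM in dIEC, a log2 fold change of -0.60 ± 0.29. Its 2 low dIEC libraries, dIEC 1 and dIEC 11, were under every WT library and the other 3 were within the WT range.

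Dense bodies, plaques and intermediate filaments hold 14 members, all below 0, where 51.2% of all tested genes were. Their median log2 fold change was -0.37. By edgeR 2 of them, Synpo2 and Svil, had an unadjusted p under 0.05, against 5.79% of all genes on the lower side. In this role 0 passed adjusted and DESeq2 called 0. Synpo2, which bundles actin at dense bodies (chromosome 3, 123076519 to 123236149, minus strand), had 125, 182 and 292 CPM in WT and 80.3, 147, 164, 153 and 90.2 CPM in dIEC. Its log2 fold change of -0.65 ± 0.25 was the most negative of the 37 (edgeR adjusted p = 0.428), with dIEC 1 and dIEC 11 below the WT range. Svil, supervillin, which links actin and myosin to membranes, had 85.2, 109 and 143 CPM in WT and 65.2, 86.6, 106, 91.3 and 77.6 CPM in dIEC, a log2 fold change of -0.40 ± 0.15 (edgeR adjusted p = 0.428). Both were lower on average, and 3 of the 5 dIEC libraries of each were still within the WT range.

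Des, desmin, the intermediate filament protein of muscle, had 182, 202 and 358 CPM in WT and 92.3, 204, 256, 329 and 135 CPM in dIEC, a log2 fold change of -0.29 ± 0.31. Synm, synemin, which assembles with desmin, had 115, 151 and 269 CPM in WT and 56.5, 137, 161, 146 and 93.2 CPM in dIEC, a log2 fold change of -0.53 ± 0.27. In dIEC 6 desmin was close to its highest WT values while synemin was near its WT median. Flna had 677, 904 and 1502 CPM in WT and 427, 857, 952, 949.5 and 617 CPM in dIEC, a log2 fold change of -0.41 ± 0.26. Vcl, vinculin, which couples integrins to actin, had 74.6, 97.8 and 130.0 CPM in WT and 53.8, 87.0, 99.2, 76.9 and 88.0 CPM in dIEC, a log2 fold change of -0.31 ± 0.16, and its opposite-strand neighbour Ap3m1 had 0.425 to 0.637 of its count. Vinculin was highest in WT 2, and its dIEC values other than dIEC 1 lay within the WT range.

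The remaining plaque genes spanned log2 fold changes from -0.44 to -0.12. Pgm5, aciculin, a partner of dystrophin at adhesion sites, had -0.44 ± 0.22, Pdlim3 and Pdlim7, LIM proteins that bind alpha-actinin or tropomyosin, -0.43 ± 0.23 and -0.40 ± 0.21, and Dmd, dystrophin, -0.34 ± 0.18. Csrp1, a LIM protein of the actin cytoskeleton, had -0.28 ± 0.21, Nexn, nexilin, which binds actin filaments, -0.26 ± 0.18, and Actn1, alpha-actinin, -0.19 ± 0.18. Itga5, the alpha chain of the fibronectin receptor, had -0.12 ± 0.19, with 25.4, 33.0 and 49.4 CPM in WT and 22.4, 25.8, 39.5, 40.5 and 33.1 CPM in dIEC. Of the Itga5 values, that of dIEC 1 lay under the WT range, and without WT 2 its log2 fold change was 0.01.

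The transcription factor and its coactivator lay on either side of 0, and by edgeR 0 of these 2 passed, adjusted or at an unadjusted p under 0.05; DESeq2 called 0 adjusted. Srf (chromosome 17, 46548329 to 46556175, minus strand) was the most even of the members, with 20.2, 22.6 and 28.0 CPM in WT and 19.9, 25.4, 24.6, 25.5 and 21.3 CPM in dIEC, and a log2 fold change of 0.02 ± 0.11 (95% interval -0.21 to 0.25). Scaled by library size alone it was -0.20, where the median of all genes was -0.22, and with protein-coding counts as the library size -0.09, where that median was -0.12, so its sign depends on the scaling. Myocd, myocardin, the coactivator of Srf in muscle (chromosome 11, 65176561 to 65269989, minus strand), had 8.20, 14.7 and 20.3 CPM in WT and 5.78, 10.1, 10.4, 16.3 and 6.77 CPM in dIEC, and a log2 fold change of -0.56 ± 0.28 (edgeR adjusted p = 0.486). Myocardin followed the low values of the contractile genes in dIEC 1 and dIEC 11 and its dIEC 6 value lay between the WT median and the WT maximum, while WT 8 and WT 12 were as low as dIEC 3 and dIEC 5 or lower. Srf is made by many cell types, and in which cells its RNA lay was not measured. Ckb, the brain-type creatine kinase that buffers ATP and is abundant in gut muscle, had 24.6, 37.6 and 52.1 CPM in WT and 15.7, 33.7, 32.0, 32.8 and 21.5 CPM in dIEC, a log2 fold change of -0.53 ± 0.22 (edgeR adjusted p = 0.442), with dIEC 1 and dIEC 11 below all WT libraries.

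To compare the levels of single members, CPM was divided by gene length, as CPM per kilobase of annotated exon. In WT, Myh11 had 164 ± 50.6 CPM per kilobase (SD, n = 6), Actg2 157 ± 56.9, Acta2 155 ± 44.9 and Myl9 146 ± 52.0. These 4, the myosin heavy and light chain and the 2 actins, were thus the most abundant members, and their spreads between libraries overlapped. All were measured in the same libraries, so this spread does not show whether they differed within a library. Tagln followed at 126 ± 41.9, Flna at 108 ± 32.4, Csrp1 at 82.7 ± 19.5 and Des at 66.0 ± 22.7 CPM per kilobase. The kinase Mylk had 46.4 ± 13.0 CPM per kilobase, and neighbours in this order overlapped in their spread. The lowest per kilobase were the channel subunits Cacna1c (2.40), Kcnmb1 (2.32) and Kcnma1 (1.22), the coactivator Myocd (2.24) and the kinase Prkg1 (0.962). In dIEC the order at the top was Actg2, 150.1 ± 72.2 (n = 5), Myh11, 127 ± 36.8, Acta2, 111 ± 38.4, and Myl9, 105 ± 31.8. Their spreads between libraries again overlapped.

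Ratios between members are free of the scaling of the libraries and ask whether the muscle genes kept their proportions. Of 12 ratios of genes with related roles, 0 passed after adjustment over the 12 by the two-sided exact permutation test (adjusted p from 0.312 to 0.970) and 1 had an unadjusted p under 0.05. That was Myocd to Srf, which had 0.409, 0.650 and 0.894 as lowest, median and highest WT ratio of counts. In dIEC 1, 3, 5, 6 and 11 it was 0.292, 0.400, 0.424, 0.641 and 0.320. The log2 ratio averaged -0.74 ± 0.42 (SD, n = 6) in WT libraries and -1.32 ± 0.44 (SD, n = 5) in dIEC libraries, a difference of -0.59 (exact permutation p = 0.0476, adjusted 0.312). WT 12 and WT 8 had ratios like those of dIEC, and dIEC 6 one like the middle of WT.

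The ratio of gut actin to alpha actin, Actg2 to Acta2, had 0.458, 0.744 and 0.964 as lowest, median and highest WT ratio of counts, and 0.547, 1.04, 0.798, 1.19 and 1.01 in the dIEC libraries. The log2 difference was 0.33 (exact permutation p = 0.208), with 3 dIEC libraries above every WT library and dIEC 1 near the lowest, WT 7. Creatine kinase against myosin, Ckb to Myh11, differed by -0.17 in log2 (exact permutation p = 0.0736), synemin against desmin by -0.20 (exact permutation p = 0.199) and leiomodin against Acta2 by 0.13 (exact permutation p = 0.139). Each of these 4 ratios had an adjusted exact p of 0.312. The kinase against myosin, Mylk to Myh11, was 0.386 to 0.483 in WT and 0.372 to 0.440 in dIEC. The pair of tropomyosins, Tpm1 to Tpm2, differed by -0.01 and the channel pair, Kcnmb1 to Kcnma1, by -0.0023 in log2, each far inside the SD of either group.

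**Figure D4:**
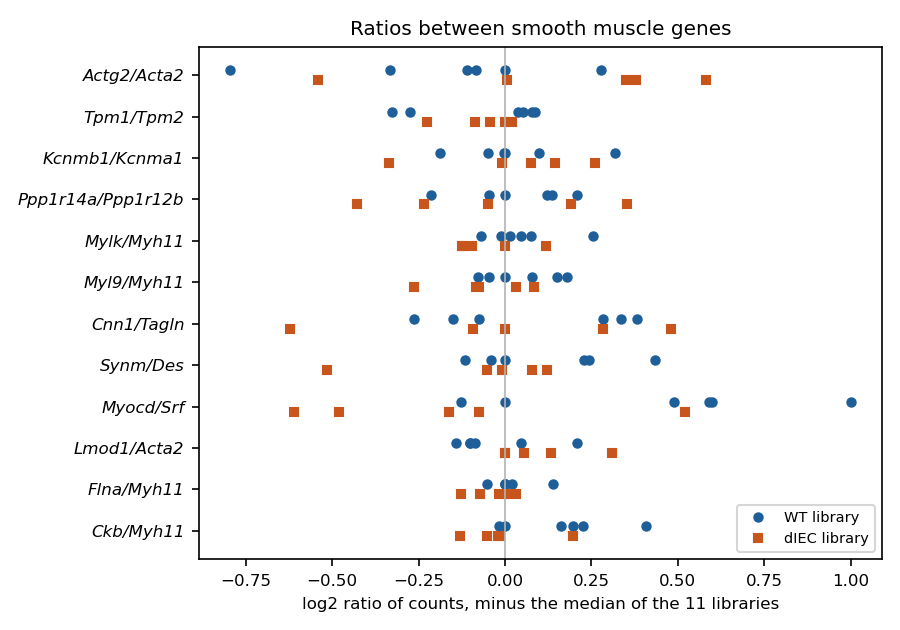
Log2 ratio of the counts of 2 members in each WT (circles) and dIEC library (squares), minus the median of the 11 libraries (horizontal axis), for the 12 ratios. Myocd to Srf lies mostly to the left in dIEC, Actg2 to Acta2 spreads widely in both groups, and Flna to Myh11 stays within a narrow band.

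The members varied together from library to library. Over the 666 pairs of members, Pearson's r of log2 CPM over the 11 libraries had a median of 0.894 and ran from 0.407 to 0.992, all above 0. These correlations are descriptions without a test, since all values of a library share its total and scaling. Flna followed the mean log2 CPM of the other 36 most closely (r = 0.996), then Acta2 (0.992), Myh11 (0.992), Pgm5 (0.991) and Synm (0.990), and 28 of 37 had an r above 0.9. The loosest were Srf (0.710), Itga5 (0.715), Actg2 (0.792) and Nexn (0.803).

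Within this shared movement, Actg2 and Cnn1 deviated in the same libraries. Their log2 CPM correlated at r = 0.976 over the 11 libraries, and at 0.944 after the mean of the members in each library had been subtracted. Tpm2 and Des deviated with Actg2 as well (r of deviations 0.786 and 0.718). Ppp1r12b, the phosphatase subunit, deviated in the opposite way to Actg2 (r = -0.907), as did Cacna1c (-0.871) and Kcnma1 (-0.758). In terms of libraries, WT 7 and dIEC 1 were low in Actg2 and Cnn1 for their muscle share, and dIEC 6 was high. Subtracting a common mean itself makes some members deviate in opposite ways, and these pairs were picked after their values were seen.

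The other genes of smooth muscle, a list of 64 with further contractile, channel, receptor and anchor genes, lay mostly on the same side. This list, like the members, was chosen with earlier results of these data known, so it is not an independent set. Of 62 tested, 54 were below 0, where 51.2% of all tested genes were, with a median log2 fold change of -0.38. By edgeR or DESeq2, 0 passed adjusted. At an unadjusted p under 0.05 by edgeR, 24 were lower and 1 higher, against 5.79% and 4.87% of all genes. The list mean followed that of the members (r = 0.950, below), so its 62 genes are not 62 independent observations. Among those with a mean of at least 5 CPM the lowest were Npnt, a matrix ligand of integrins, at -0.71 ± 0.26, Casq2, a calcium store protein, at -0.69 ± 0.31, Gja1, the gap junction protein connexin 43, at -0.69 ± 0.29, and Gucy1b1, a subunit of the nitric oxide receptor, at -0.65 ± 0.24. The highest were Tpm3, a tropomyosin also made outside muscle, at 0.28 ± 0.11, Rock2, a protein kinase, at 0.15 ± 0.10, Ldb3, a Z-disc protein, at 0.15 ± 0.19, and Zyx, zyxin, at 0.15 ± 0.11. Over the 11 libraries the mean log2 CPM of this list followed that of the members at r = 0.950 (Spearman's coefficient 0.955), and at r = 0.919 without WT 4 and dIEC 1, the libraries farthest from the median of the members. Tpm3 and Rock2 were instead higher where the members were low (r = -0.730 and -0.761).

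Striated muscle shares several of these genes. Of its 12 markers 4 passed the filter on low counts, and the list summed to 15.6 to 28.5 CPM in WT and 17.8 to 24.4 CPM in dIEC. Ckm, the creatine kinase of striated muscle, averaged 6.11 CPM and Ttn, titin, 5.87 CPM over all libraries.

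Taken as list means, markers of the other cells of the wall moved with the muscle genes over the libraries. The mean log2 CPM of markers of the interstitial cells of Cajal, the pacemaker cells of gut muscle, followed the members at r = 0.886 (Spearman 0.827), that of vascular mural cells at 0.830 (0.891) and that of enteric neurons and glia at 0.810 (0.882), each with n = 11. Fibroblast and collagen markers had r = 0.866 (Spearman 0.845) and endothelium 0.720 (0.818). Without WT 4 and dIEC 1 the 5 values of r, in the same order, were 0.718, 0.910, 0.876, 0.746 and 0.830. Within the 6 WT libraries they were 0.840, 0.916, 0.845, 0.814 and 0.939; no value is given for the 5 dIEC libraries, under the 6 set as the minimum for a correlation. Fat of the mesentery and mesothelium, the tissues outside the muscle, had r = 0.140 and 0.143 with the members, 0.143 and 0.421 without WT 4 and dIEC 1, and 0.640 and 0.839 within WT, the last in the range of the wall lists. Single markers of the wall lists did not all follow the members. Over the 11 libraries r was 0.855 for Kit and -0.034 for Elovl6 of the cells of Cajal, and 0.783 for Rgs5 and 0.890 for Abcc9 of mural cells. It was -0.350 for Ret and 0.858 for Nos1 of neurons, 0.833 for Fn1 and 0.894 for Col3a1 of fibroblasts, and 0.334 for Vwf and 0.623 for Pecam1 of endothelium.

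Taken as list means, epithelial markers moved the other way. The epithelium list had r = -0.719 (Spearman -0.827) with the members and -0.798 without WT 4 and dIEC 1, and the absorptive enterocyte list -0.727 (-0.727) and -0.675. Values of a library share one total, so a larger part for one tissue leaves less for another. Whether this lies behind the opposite movement was not tested. Within WT the r was -0.821 for the epithelium list and -0.608 for the enterocyte list (Spearman -0.943 and -0.486). Scaled by library size alone, the r of the epithelium list was -0.0523 and that of the enterocyte list -0.596. Single epithelial markers did not all follow the list. With TMM scaling, r over the 11 libraries was -0.915 for Lgals4 and -0.174 for Krt8. Anpep, a brush border peptidase, had 3654 CPM in WT 8, the WT library with the smallest muscle share, and 1647 in WT 9. It had 1074 CPM in WT 4, with the largest share, and 932, 806 and 913 in WT 2, WT 7 and WT 12. In dIEC 1, 3, 5, 6 and 11 Anpep had 2767, 2574, 2133, 1220 and 2583 CPM. Libraries of similar muscle share could thus differ in Anpep, as did dIEC 5 (share 2.03%) and WT 7 (2.04%). Over the 11 libraries the r of Anpep with the members was -0.657, and that of Apob, of the same list, -0.724.

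**Figure D5:**
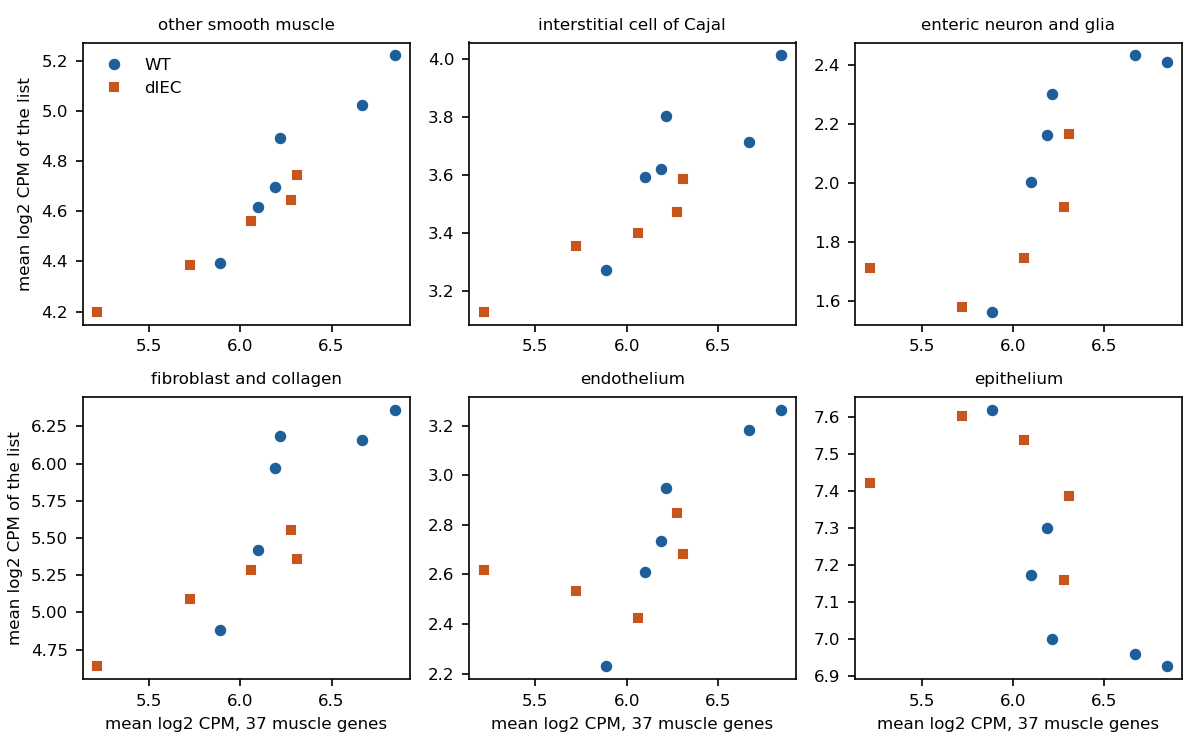
Mean log2 CPM of 6 marker lists (vertical axes) against that of the 37 members (horizontal axes) in each WT (circles) and dIEC library (squares). The lists of the wall slope upward with the members and the epithelium list slopes downward.

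Between the groups, the same lists lay on the side of the muscle genes or on the opposite one, and their part in the muscle result was not tested. Of the tested markers, 6 of 7 were below 0 for interstitial cells of Cajal (median log2 fold change -0.32), 6 of 7 for mural cells (-0.47), 13 of 14 for neurons and glia (-0.43), 14 of 14 for fibroblasts and collagen (-0.66) and 13 of 14 for endothelium (-0.28). Above 0 were 14 of 15 for epithelium (0.28) and 15 of 15 for absorptive enterocytes (0.74). By edgeR 0 of these genes passed adjusted, and DESeq2 called 0 of them. At an unadjusted p under 0.05 by edgeR, 2, 2, 5, 10 and 3 genes of the first 5 lists were lower, and 2 and 5 of the epithelium and enterocyte lists were higher, against 5.79% of all genes on the lower and 4.87% on the higher side. The lists summed, in WT and in dIEC, to 95.8 to 141 and 77.9 to 119.5 CPM for interstitial cells of Cajal, 163 to 477 and 176 to 305 for mural cells, and 40.5 to 83.0 and 42.1 to 70.05 for neurons and glia. They summed to 566 to 1519 and 503 to 946 CPM for fibroblasts and collagen, 72.3 to 157 and 82.6 to 113 for endothelium, 2620 to 4594 and 3176 to 4349 for epithelium, and 2900.3 to 11661 and 4374 to 10781 for enterocytes. No marker of any list was at 0 in every library. Kit, the receptor that defines the pacemaker cells, averaged 33.5 ± 4.68 CPM in WT libraries and 26.9 ± 3.72 CPM in dIEC. Elovl6, a fatty acid elongase in the same list, averaged 25.9 ± 3.53 and 28.5 ± 7.46 CPM. Of the fibroblast list, Fn1, fibronectin, averaged 199.9 ± 58.8 CPM in WT libraries and 195 ± 60.6 CPM in dIEC, and Col3a1, a fibrillar collagen, 205 ± 94.5 and 87.9 ± 40.1 CPM. For interstitial cells of Cajal the 2 most abundant markers thus lay on opposite sides of 0. Their log2 fold changes were -0.32 ± 0.12 (SE) for Kit and 0.14 ± 0.16 for Elovl6, and the groups overlapped for both. On the log2 scale, the fold changes of the 2 most abundant genes of each other list were -0.63 for Rgs5 and -0.55 for Abcc9 of mural cells, 0.04 for Ret and -0.28 for Nos1 of neurons, and -0.10 for Vwf and -0.39 for Pecam1 of endothelium. They were 0.41 for Lgals4 and 0.05 for Krt8 of epithelium, and 0.58 for Anpep and 0.85 for Apob of enterocytes. The ribosomal RNA share of the counts had r = -0.303 (Spearman -0.164) with the members, and 0.302 without WT 4 and dIEC 1.

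The genes most like the members, themselves no members, were found among 6213 protein-coding genes with a mean of at least 10 CPM, by Pearson's r of log2 CPM with the mean log2 CPM of the members over the 11 libraries. The median r of these genes was -0.217, and 89 exceeded 0.9. The highest were Atp2b4, a calcium pump of the plasma membrane (0.982), Tmem47 (0.978), Frem2 (0.974), Dmpk (0.973), Tgfb1i1 (0.972), Map1a (0.971), Itga1 (0.970), Cfl2 (0.967), Itga9 (0.964) and Ehd2 (0.961), of which Atp2b4 and Tgfb1i1 are in the list of other smooth muscle genes. The lowest were Baiap2l1 (-0.971), Serinc3 (-0.951), Mal2 (-0.944), Fmo4 (-0.942), Atp6v1h (-0.933), Ociad2 (-0.932), Sult1d1 (-0.931), Med15 (-0.930), Tc2n (-0.930) and Ces2a (-0.927). Atp2b4 averaged 132 ± 36.4 CPM in WT libraries and 92.0 ± 24.4 CPM in dIEC, and Baiap2l1 36.9 ± 8.58 and 47.3 ± 15.0.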

How the data were processed

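RNA of the distal ileum of 6 WT and 5 dIEC mice was analysed. Per the labels' protocols, libraries were made with a directional NEBNext Ultra kit, and TopHat2 and the build mm10 are named in the submitters' processing notes. How reads were counted (tool, strand setting, multiple positions) is not given in the sources used here. As units, the authors deposited whole-number counts per gene without normalization. A row without a gene name (0.00778 to 0.0147% of a library) was left out. Libraries of a group all differed by more than counting noise (chi-square at least 10.7 per degree of freedom).

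Counts were filtered with filterByExpr of edgeR 4.0.16 in R 4.3.3, scaled with TMM factors and tested with edgeR's robust quasi-likelihood F test over 15911 genes (Benjamini-Hochberg adjustment, threshold 0.05; tested on simulated data). DESeq2 1.42.0, other scalings, no filter, and each library left out in turn were alternatives. CPM is taken after TMM scaling, log2 CPM has 0.5 CPM added, and ratios of counts have 0.5 added. Ratios were compared by two-sided exact permutation over 462 assignments. Gene types, exon lengths and coordinates came from GENCODE vM21 (GRCm38), in which 99.2% of symbols occur.

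The members and lists were chosen with earlier results of these data known. Named were all members, the 4 lowest and 4 highest log2 fold changes of the other smooth muscle list with a mean of at least 5 CPM, the 10 highest and 10 lowest r with the members, and marker genes from the 2 most abundant of each list.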

Additional observations from a re-analysis of the deposited data

Results flagged for a closer look

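A sample standing far from its group was looked for in 100 groups of 5 or 6 values (each member and ratio in WT and in dIEC, and the muscle share), by comparing the gap between the highest or lowest library and its neighbour with the range of the group. Chance alone marks about 1 in 20 such groups, and 3 of the 100 were marked. Pdlim7, a LIM protein that binds tropomyosin and alpha-actinin, had 35.6 CPM in WT 4, with the next WT library at 25.7 CPM and the lowest at 19.9 CPM. Srf had 28.0 CPM in WT 4, with the next at 22.7 CPM and the lowest at 20.2 CPM. The ratio of Flna to Myh11 counts was 0.882 in WT 7, with the next at 0.811 and the lowest at 0.773. WT 4 is also the library with the largest muscle share, and WT 7 had a share near the middle of WT.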

How the results depend on the processing

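Under every alternative run, 0 members passed an adjusted p under 0.05, and the median log2 fold change of the members stayed below 0, from -0.66 with library size alone to -0.28 without dIEC 1. With library size alone the median of all genes was -0.22, and with protein-coding counts as the library size -0.12 (members -0.52), so the members lay 0.44 and 0.40 below it. Over all genes, edgeR called 1 gene higher and 0 lower; DESeq2 called 9 and 2, library size alone called 1 lower, and leaving out a library gave 1 to 213 higher and 0 to 106 lower, the highest counts without WT 8. The members lower at an unadjusted p under 0.05 numbered 8, 28 with library size alone, and 1 (without WT 4 or dIEC 1) to 19 (without WT 8) with a library left out. They were 3 without WT 2 or dIEC 11, 18 without dIEC 5 and 13 without dIEC 6.

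The log2 fold change of Srf was -0.20 with library size alone and -0.0863 with protein-coding counts, and -0.0117 to 0.0852 with a library left out. With a library left out, Actg2 ran from -0.30 to 0.17 and Itga5 from -0.21 to 0.00618. The log2 difference of Kcnmb1 to Kcnma1 was 0.00811 with a pseudocount of 2 counts and ran from -0.0609 to 0.0883 with a library left out, Tpm1 to Tpm2 from -0.0629 to 0.0307, Ppp1r14a to Ppp1r12b from -0.16 to 0.0309 and Cnn1 to Tagln from -0.19 to 0.0826. The r of the epithelium list was -0.0523 with library size alone. The cause of these changes was not tested. No paired analysis was possible because the labels give no batch, litter or pairing. Low counts (from 27) limit the precision of Ppp1r14a, Prkg1 and Kcnmb1.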
